A study of Mus musculus with 9 samples.

Results

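The genes that move zinc and iron across the membranes of a cell, store these metals and sense them were followed in intestinal epithelial cells (IECs) of the mouse colon. The members were chosen by gene symbol. They are the rows named Slc30a or Slc39a with a number and nothing else, and the rows Mt1, Mt2, Slc11a2, Slc40a1, Tfrc, Fth1, Ftl1, Heph, Cybrd1, Aco1 and Ireb2. This gave 35 members among the 46095 symbols of the count table, of which 31 passed the filter on low counts and were tested beside 14593 genes in all. RNA-seq was read from IECs that EDTA had released from the colon. Smad4Vil-KO mice (4 libraries, called Smad4-knockout below) carried floxed Smad4 alleles and Villin-Cre, and Smad4Vil-KO;Setd2Vil-KO mice (5 libraries, called double-knockout below) carried floxed Setd2 alleles in addition. Smad4 is thus deleted in both groups, which were on a C57BL/6J background, and the Villin promoter drives Cre in the whole intestinal epithelium and not in other cells of the gut. Both groups had received the carcinogen azoxymethane (AOM) at 10 mg/kg at 8 weeks of age, followed by 1 course of 2% dextran sodium sulphate (DSS) in the drinking water, and were sampled at 10 days. No library of untreated or wild-type epithelium was part of the comparison.

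Zinc enters the cytosol through the ZIP transporters of the Slc39a family and leaves it, towards organelles or the outside, through the ZnT transporters of the Slc30a family. Metallothioneins bind the zinc in the cytosol, and the zinc-sensing factor encoded by Mtf1 raises the transcription of the metallothionein genes and of Slc30a1 when zinc is abundant, through short DNA motifs known as metal response elements. Iron is taken up from the gut lumen by the divalent metal transporter Slc11a2 after reduction by Cybrd1, is stored in ferritin, and leaves the cell through ferroportin (Slc40a1) with the help of the oxidase hephaestin (Heph), while the iron regulatory proteins encoded by Aco1 and Ireb2 bind hairpins in some iron mRNAs, those of ferritin, ferroportin and the transferrin receptor (Tfrc) among them, when iron is scarce.

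Each library held 12487129 to 17120202 counts in the Smad4-knockout group and 12729533 to 14637157 in the double-knockout group. Values are CPM, the counts scaled by library size and TMM factor, and 1 count was worth 0.0593 to 0.0793 CPM. Setd2, a histone methyltransferase gene, had values of 118, 119.9, 99.0 and 114 CPM in Smad4-knockout replicates 1 to 4 and of 57.7, 86.9, 55.6, 53.8 and 75.9 CPM in double-knockout replicates 1 to 5. It fell by 0.77 on the log2 scale (standard error 0.14, adjusted p = 0.00756). Smad4 was at 92.6, 54.2, 54.3 and 55.3 CPM in the former libraries and at 59.95, 114, 38.2, 40.4 and 98.6 CPM in the latter, a log2 fold change of 0.13 (adjusted p = 0.819). These values count reads over the whole gene and no library had intact Smad4, so they do not check its deletion. The cells were epithelial by their markers, with Epcam at a mean of 1917 and 1924 CPM in the 2 groups, and the summed leukocyte markers were at 8.90 to 28.5 CPM for macrophages, 36.9 to 118 CPM for lymphocytes and 58.9 to 186 CPM for neutrophils. Double-knockout replicates 1 and 2 stood apart from the other 3 libraries of their group. Mitochondrial genes took 5.62% and 6.29% of their counts, against 8.12% to 10.3% in the other 7 libraries, and the chi-square per gene was 21.3 between these 2 and 47.6 to 71.9 against replicates 3 to 5. A fit without both, chosen after the data were seen, is given for the member counts and for the called genes whose lowest values were in both of these libraries. It ended the calls of Slc11a2, Mt3 (adjusted p = 0.0675) and Ppox (adjusted p = 0.0614), and all other called members and related genes passed it. Smad4-knockout replicate 1 stood apart as well, with a chi-square per gene of 28.3 to 43.6 against replicates 2 to 4, which had 11.9 to 13.3 among themselves. Its summed goblet markers were at 30226 CPM, against 11325 to 14741 CPM in the other 3, and its Paneth markers at 1484 CPM, against 332 to 405 CPM. Without this library the calls of Slc30a1, Mt2, Slc11a2, Mt3, Slc46a1, Alas1, Alad, Ppox, Epas1 and Iscu were lost. Double-knockout replicate 5 had a chi-square per gene of 24.4 and 29.9 against replicates 3 and 4, which had 10.2 between them. Its summed goblet and Paneth markers, 13071 and 1555 CPM, were the highest of its group. Without it 1380 genes were called higher and 1316 lower, against 986 and 955 with all libraries. Double-knockout replicates 1, 2 and 5 held 3857 to 4907 counts of Y-linked genes and the other 6 libraries at most 28, so that sex and genotype were not balanced, and fits with a term for these libraries (the Y-linked term) are given where they end a call. Here and below, adjusted p-values come from the quasi-likelihood test of edgeR, corrected over all genes tested by the Benjamini-Hochberg method, and they measure the spread between these libraries, since the labels do not say that each came from a mouse of its own. In bulk RNA, fewer cells of a type and less RNA per cell cannot be told apart.

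Of the 31 members tested, 4 rose in double-knockout IECs at an adjusted p under 0.05 (12.9%, against 6.76% of all genes tested) and 2 fell (6.45%, against 6.54%). The 4 that rose were Slc30a10, Slc30a1, Mt2 and Ireb2, and the 2 that fell were Slc39a3 and Slc11a2. The median log2 fold change of the members was -0.0031, beside -0.00059 for all genes tested, with 15 members above 0 and 16 below. Every double-knockout library lay above every Smad4-knockout library for 4 members (12.9%, against 8.34% of all genes), and below for 5 (16.1%, against 8.87%). The calls of Slc30a10 and Ireb2 held in all 20 alternative fits and subsets of libraries. The count of higher members was 2 without Smad4-knockout replicate 1, 2 or 3, without double-knockout replicate 4, and in the fit with a Y-linked term. Over all genes the higher calls fell too, from 986 of 14593 in the main fit to 509, 599, 455, 654 and 653 in these fits. The genes tested there were 14916, 14894, 14876, 14374 and 14593. The count of lower members was 0 without Smad4-knockout replicate 3 and with the Y-linked term. It was 1 without Smad4-knockout replicate 1, 2 or 4 or double-knockout replicate 2, 3 or 4. Over all genes the lower calls were 955 in the main fit. They were 392 and 632 in the fits with 0 lower members, and 509, 605, 563, 812, 730 and 619 in those with 1. With double-knockout replicates 1 and 2 both set aside, 5 members were higher and 3 lower, beside 1054 and 1100 of all 14621 genes tested.

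**Figure D1:**
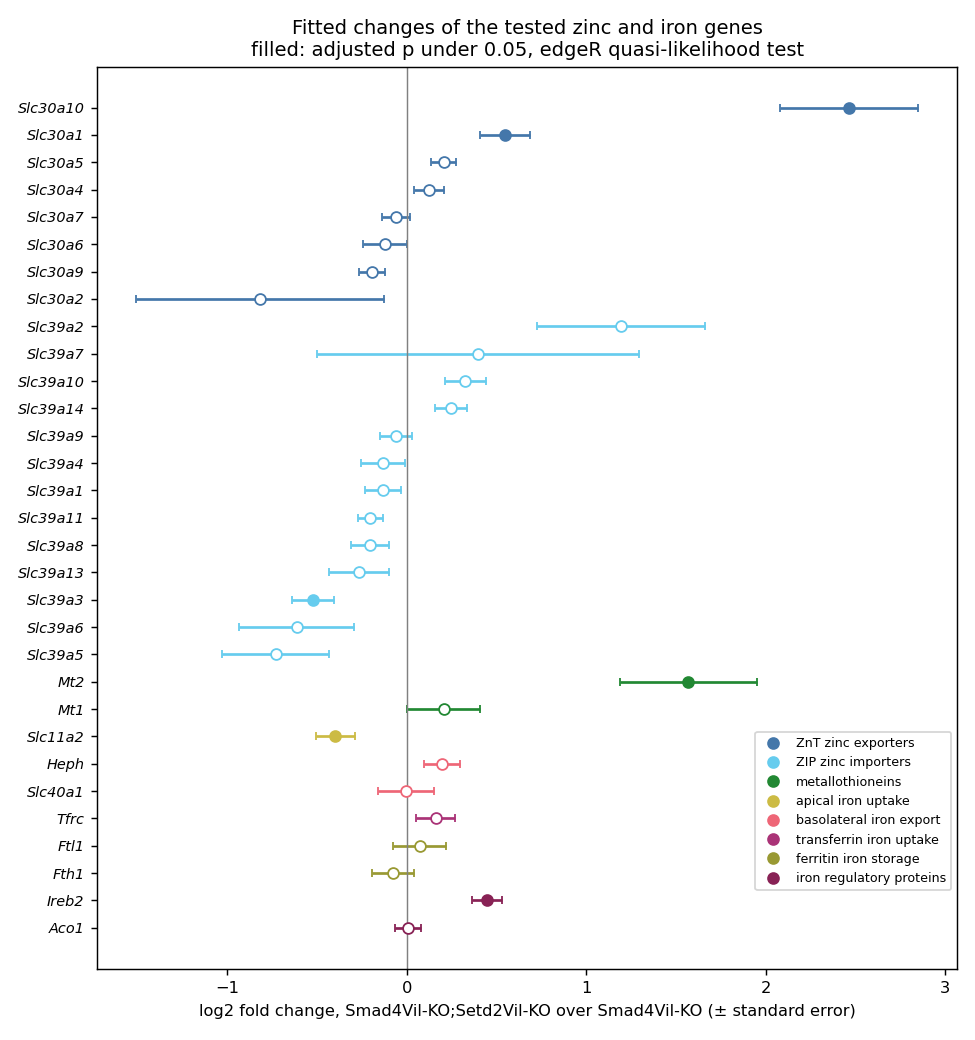
Log2 fold change of each of the 31 tested members, double-knockout over Smad4-knockout, with bars for the standard error and colours for the role of the gene. Filled points had an adjusted p under 0.05. Slc30a10 (2.46) lies farthest to the right, followed by Mt2 (1.57) and by Slc39a2 (1.19), which was not called.

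Among the ZnT transporters, Slc30a10 and Slc30a1 rose and the other 6 tested genes did not pass the test. Slc30a10 encodes a transporter of the ZnT family that is best known for exporting manganese. It was at 5.25, 11.2, 7.30 and 3.41 CPM in Smad4-knockout replicates 1 to 4 and at 33.1, 62.7, 26.9, 20.8 and 45.6 CPM in double-knockout replicates 1 to 5. The lowest double-knockout library was above the highest Smad4-knockout library, and replicates 2, 5 and 1, which held the Y-linked counts, were the 3 highest. The mean rose from 6.79 ± 3.35 (SD, n = 4) to 37.8 ± 16.6 CPM (SD, n = 5) (log2 fold change 2.46, standard error 0.39, adjusted p = 0.00318). With the term for Y-linked counts the log2 fold change was 1.80 (adjusted p = 0.0157), and in the libraries without such counts it was 1.80 as well (adjusted p = 0.00679). The gene lies at chr1:185454848-185468762 (GRCm38, plus strand), and the antisense RNA Gm2061 shares 9.13% of its exon bases. Gm2061, named for this overlap, had 10 to 57 counts in Smad4-knockout libraries and 46 to 138 in double-knockout libraries, against 43 to 189 and 265 to 882 counts for Slc30a10, and it passed the test in the same direction (log2 fold change 1.57, adjusted p = 0.0457). Whether the counting used strand is not given in the sources used here, so reads in the shared bases cannot be assigned to a strand.

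Slc30a1 encodes the ZnT transporter of the plasma membrane that carries zinc out of the cell. It was at 40.4, 47.9, 45.1 and 50.2 CPM in Smad4-knockout replicates 1 to 4 and at 50.3, 82.5, 62.6, 76.5 and 63.2 CPM in double-knockout replicates 1 to 5. The groups did not overlap, but double-knockout replicate 1 lay just above the highest Smad4-knockout library. The mean rose from 45.9 ± 4.23 (SD, n = 4) to 67.0 ± 12.7 CPM (SD, n = 5) (log2 fold change 0.55, standard error 0.14, adjusted p = 0.0265). Without Smad4-knockout replicates 1, 2 and 3 in turn the adjusted p was 0.0781, 0.0574 and 0.0795, without double-knockout replicate 4 it was 0.0561, and with a Y-linked term it was 0.0610 at a log2 fold change of 0.60. The antisense RNA 1700034H15Rik shares 8.92% of the exon bases of Slc30a1 and had at most 54 counts in any library, and it passed the test in the same direction (log2 fold change 1.23, adjusted p = 0.0380).

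The other ZnT genes serve organelles. Slc30a5, Slc30a6 and Slc30a7 load zinc into the early secretory pathway and did not pass the test (log2 fold changes 0.21, -0.12 and -0.06, with adjusted p of 0.0796, 0.537 and 0.628), though Slc30a5 passed with DESeq2 (0.21, adjusted p = 0.0271) and limma-voom (0.22, adjusted p = 0.0377). Slc30a9, linked to zinc in mitochondria, was lower in every double-knockout library, at a mean of 67.4 against 77.1 CPM, but with an adjusted p of 0.0997 it was not called. Slc30a4 had a log2 fold change of 0.13 (adjusted p = 0.330), and Slc30a2, which loads zinc into vesicles, was at a few CPM with a wide spread (log2 fold change -0.82, standard error 0.69, adjusted p = 0.450). Slc30a3, the transporter of synaptic vesicles, had at most 3 counts in any library, and Slc30a8, that of insulin granules, had 0 counts in all 9 libraries, which allows up to 0.238 CPM in each by a floor of 3 counts, for counting error only.

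Both metallothionein genes lie side by side, Mt2 at chr8:94172664-94173568 and Mt1 at chr8:94179082-94180327 (GRCm38, plus strand). Mt2 was at 17.9, 26.0, 20.2 and 33.0 CPM in Smad4-knockout replicates 1 to 4 and at 48.2, 128, 60.7, 93.7 and 28.6 CPM in double-knockout replicates 1 to 5. Only double-knockout replicate 5 lay within the Smad4-knockout range. The mean rose from 24.3 ± 6.73 (SD, n = 4) to 71.9 ± 39.4 CPM (SD, n = 5) (log2 fold change 1.57, standard error 0.38, adjusted p = 0.0230). Without Smad4-knockout replicates 1, 2 and 3 in turn the adjusted p was 0.0701, 0.0546 and 0.0792, and without double-knockout replicate 4 it was 0.0501. With the term for Y-linked counts the log2 fold change was 1.67 and the adjusted p 0.0525, and in the libraries without such counts they were 1.68 and 0.00146.

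Mt1 was at 78.1, 125, 129.6 and 117 CPM in Smad4-knockout replicates 1 to 4 and at 103, 145, 138, 173 and 89.96 CPM in double-knockout replicates 1 to 5. The groups overlapped, at a log2 fold change of 0.20 ± 0.20 (standard error) and an adjusted p of 0.518. Mt2 took 18.7%, 17.2%, 13.5% and 21.9% of the counts of both genes in Smad4-knockout replicates 1 to 4, and 32.0%, 47.0%, 30.5%, 35.1% and 24.2% in double-knockout replicates 1 to 5. Every double-knockout library was above every Smad4-knockout library. The mean share was 17.8% ± 3.52 (SD, n = 4) and 33.7% ± 8.40 (SD, n = 5), a difference of 15.9 percentage points, and 12.6 to 18.3 when single libraries were left out. This share was chosen after the values of both genes were seen, so it is a description with no test. An antisense RNA, Gm45774, covers 73.5% of the exon bases of Mt2 in GENCODE M21 and was not a row of the count table, so Mt2 counts may hold its reads if strand was not used.

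**Figure D2:**
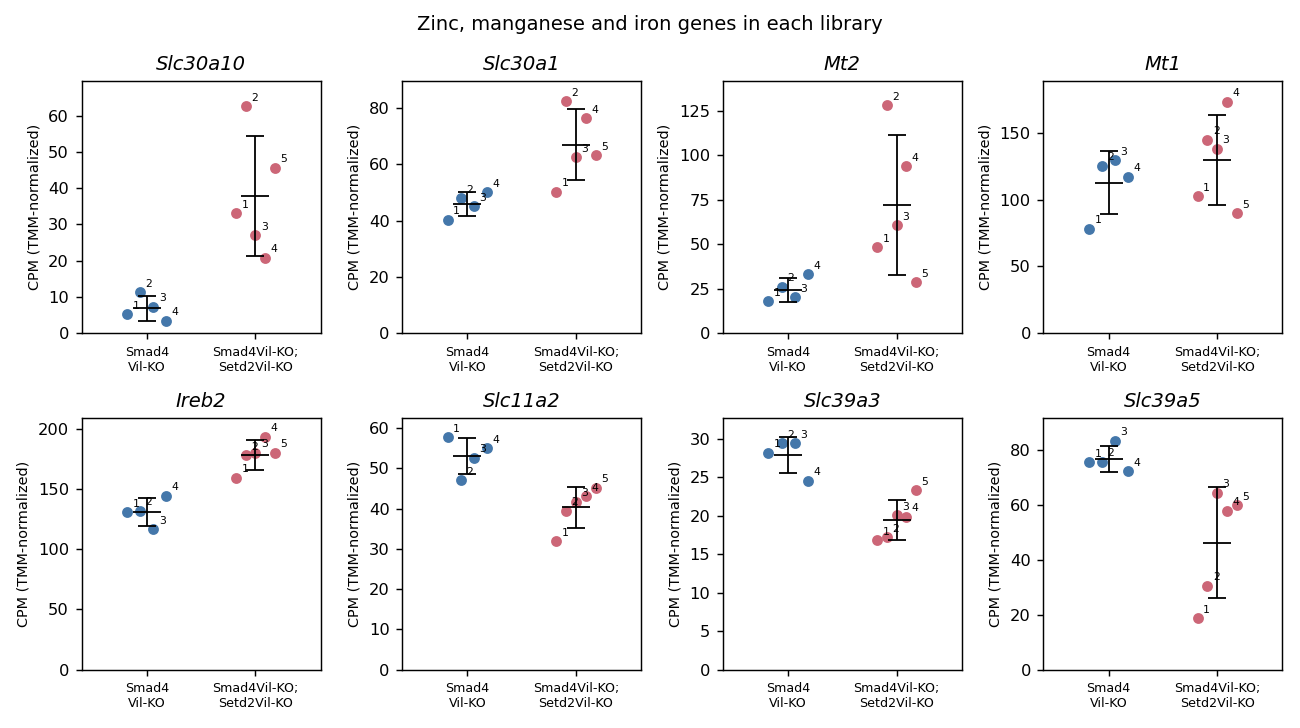
CPM of 8 members in each library, with the replicate number beside each point and bars for the mean and SD of the 4 Smad4-knockout and 5 double-knockout libraries. Slc30a10, Slc30a1 and Ireb2 do not overlap between the groups, Mt2 overlaps through replicate 5, Mt1 overlaps broadly, and Slc11a2, Slc39a3 and Slc39a5 lie lower in every double-knockout library.

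The promoter windows of these 4 genes are printed because Mt1, Mt2 and Slc30a1 are the best known targets of the zinc-sensing factor, and Slc30a10 had the largest fold change among the members tested. Each window holds 250 bases before and 50 bases after the start site in RefSeq (GRCm38.p6), 5' to 3' on the strand of the gene, and capitals mark matches to the core of the metal response element, spelled TGCACNC or TGCGCNC, on either strand.
Mt1, chr8:94178839-94179138: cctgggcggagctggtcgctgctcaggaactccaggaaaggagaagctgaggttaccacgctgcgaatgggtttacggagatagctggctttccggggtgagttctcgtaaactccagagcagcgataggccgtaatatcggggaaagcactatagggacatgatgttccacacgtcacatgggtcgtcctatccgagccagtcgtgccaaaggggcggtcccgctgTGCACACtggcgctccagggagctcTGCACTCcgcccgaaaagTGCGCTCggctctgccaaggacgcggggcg
Mt2, chr8:94172368-94172667: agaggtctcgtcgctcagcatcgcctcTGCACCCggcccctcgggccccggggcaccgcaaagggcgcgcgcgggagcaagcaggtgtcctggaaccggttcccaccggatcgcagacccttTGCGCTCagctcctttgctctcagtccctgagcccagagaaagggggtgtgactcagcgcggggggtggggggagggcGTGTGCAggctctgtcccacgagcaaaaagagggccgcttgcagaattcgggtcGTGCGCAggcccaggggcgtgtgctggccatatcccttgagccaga
Slc30a1, chr1:191906531-191906830: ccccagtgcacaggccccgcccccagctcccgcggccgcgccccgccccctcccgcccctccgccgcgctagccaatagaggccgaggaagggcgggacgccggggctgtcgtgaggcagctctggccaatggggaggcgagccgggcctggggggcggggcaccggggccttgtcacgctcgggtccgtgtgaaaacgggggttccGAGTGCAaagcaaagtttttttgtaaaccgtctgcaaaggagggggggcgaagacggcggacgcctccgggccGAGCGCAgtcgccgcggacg
Slc30a10, chr1:185454598-185454897: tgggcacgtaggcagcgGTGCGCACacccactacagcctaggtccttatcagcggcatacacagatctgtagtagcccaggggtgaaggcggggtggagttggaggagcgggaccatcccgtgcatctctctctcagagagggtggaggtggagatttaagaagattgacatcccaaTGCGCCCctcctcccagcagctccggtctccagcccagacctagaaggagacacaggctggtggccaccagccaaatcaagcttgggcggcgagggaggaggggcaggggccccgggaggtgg
The Mt2 window held 4 matches, that of Mt1 3, that of Slc30a1 2 and that of Slc30a10 3, of which a pair overlaps on opposite strands. Of 32851 windows of this length in the RefSeq table, 25.7% held at least 1 match, 7.11% at least 2 and 0.518% at least 4. Entries were found for 28 of the 35 members, and 15 of these genes (53.6%) had a match in a window, against 28.2% of all genes. Slc30a4, which was not called, held 3 matches, and the fallen Slc39a3 held 1. Both metallothionein windows hold several matches, while Mt2 rose and Mt1 did not pass the test. A match is a description of letters, and no binding was measured here. No entry was found for Slc11a2, Heph, Slc39a4, Slc39a14, Slc40a1, Slc39a6 and Slc30a8.

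Among the 13 ZIP transporters tested, Slc39a3 fell and none rose, with 4 fold changes above 0 and 9 below. Slc39a3 encodes a zinc importer of the plasma membrane. It was at 28.2, 29.4, 29.4 and 24.6 CPM in Smad4-knockout replicates 1 to 4 and at 16.8, 17.2, 20.03 and 19.9 CPM in double-knockout replicates 1 to 4, with 23.3 CPM in replicate 5. The groups did not overlap. The mean fell from 27.9 ± 2.30 (SD, n = 4) to 19.4 ± 2.61 CPM (SD, n = 5) (log2 fold change -0.52, standard error 0.12, adjusted p = 0.0165). Without Smad4-knockout replicates 2 and 3 in turn the adjusted p was 0.0504 and 0.0593, and with a Y-linked term it was 0.0843 at a log2 fold change of -0.48. Double-knockout replicates 1 and 2, with the low mitochondrial share, were the lowest of the 9, and with both set aside the log2 fold change was -0.40 (adjusted p = 0.0334). No other gene of GENCODE M21 shares exon bases with Slc39a3, which lies at chr10:81028538-81037426 (minus strand).

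Slc39a5 encodes an importer of the basolateral membrane and Slc39a4 that of the apical membrane, the gene mutated in the zinc deficiency acrodermatitis enteropathica. Slc39a5 was at 75.6, 75.9, 83.4 and 72.4 CPM in Smad4-knockout replicates 1 to 4 and at 18.7, 30.7, 64.6, 58.0 and 59.9 CPM in double-knockout replicates 1 to 5. All 5 double-knockout libraries were lower, but replicates 1 and 2 were far below the other 3, and at a log2 fold change of -0.73 ± 0.30 (standard error) and an adjusted p of 0.126 it was not called. Both have the low mitochondrial share, and with both set aside Slc39a5 had a log2 fold change of -0.33 (adjusted p = 0.0225). In the libraries without Y-linked counts it was -0.32 (adjusted p = 0.0374). In each of these subsets 2 of 7 colonocyte markers were lower and 3 had an unadjusted p under 0.05. The summed CPM of 7 colonocyte markers was 2140, 3603, 6312, 3925 and 5633 in the double-knockout libraries, the same order as that of Slc39a5, and 4059 to 5218 in the Smad4-knockout libraries, and the part of these cells in the value of Slc39a5 was not tested. Slc39a5 lies inside Ankrd52 on the opposite strand, with no exon base in common, and Ankrd52 had a log2 fold change of 0.04 (adjusted p = 0.767). Slc39a4 was at 233, 195, 263 and 175 CPM in Smad4-knockout replicates 1 to 4 and at 223, 194, 169, 194 and 208 CPM in double-knockout replicates 1 to 5. These ranges overlapped, with a log2 fold change of -0.13 (adjusted p = 0.499).

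A few further importers differed by amounts that did not pass the test. Slc39a14, which carries zinc, manganese and iron, had a log2 fold change of 0.25 (adjusted p = 0.0921), and Slc39a8, which carries zinc and manganese, one of -0.20 (adjusted p = 0.220), beside 2.46 for the manganese exporter Slc30a10. Slc39a10, another importer of the plasma membrane, was higher in every double-knockout library (0.33, adjusted p = 0.0857), and Slc39a11 was lower in every one (-0.20, adjusted p = 0.0792). Without double-knockout replicate 5 the adjusted p of Slc39a10 was 0.0352, without double-knockout replicate 3 that of Slc39a14 was 0.0475, and with DESeq2 that of Slc39a11 was 0.0410. Slc39a1 had a log2 fold change of -0.13 (adjusted p = 0.388), Slc39a9, found in the Golgi, one of -0.06 (adjusted p = 0.695), and Slc39a13 one of -0.27 (adjusted p = 0.299).

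The remaining importers had few counts. Slc39a6 had 19 to 87 counts per library and a log2 fold change of -0.61 ± 0.32 (standard error), with an adjusted p of 0.222, and double-knockout replicates 1 and 2 were the highest of their group. It passed with both set aside (-1.15, adjusted p = 0.0194), in the libraries without Y-linked counts (-0.93, adjusted p = 0.0281) and with limma-voom (-0.84, adjusted p = 0.0371). The gene body of Slc39a6 overlaps that of Elp2 on the opposite strand, with no exon base in common. Elp2, named for this, fell by 0.74 on the log2 scale (adjusted p = 0.0205). Slc39a2 had 4 to 26 counts and a log2 fold change of 1.19 (adjusted p = 0.114), which passed without Smad4-knockout replicate 4 (1.75, adjusted p = 0.0441) and with limma-voom (1.47, adjusted p = 0.0298). Mettl17 shares 4.38% of the exon bases of Slc39a2 on the same strand. Mettl17, named for this, fell (log2 fold change -0.67, adjusted p = 0.00203), and the effect of shared reads on Slc39a2 was not tested. Slc39a7, which releases zinc from the endoplasmic reticulum, had 9, 6, 80 and 8 counts in Smad4-knockout replicates 1 to 4 and 13, 10, 6, 71 and 43 in double-knockout replicates 1 to 5. High and low libraries occurred in both groups, and the nearest genes Rxrb, H2-Ke6 and Ring1 had at most 11 counts in any library. Some genes farther off in the region had more, such as H2-K1 (160 to 602 counts) and Rps18 (631 to 1267 counts). Gm20427 shares 80.7% of the exon bases of Slc39a7 on the same strand, and the effect of shared reads on the counts of Slc39a7 was not tested. Slc39a12 had 4 counts in double-knockout replicate 3 and 0 in the other libraries.

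On the side of iron, uptake from the lumen was represented by Slc11a2, which fell. It was at 57.7, 47.1, 52.7 and 54.9 CPM in Smad4-knockout replicates 1 to 4 and at 31.9, 39.4, 41.7, 43.1 and 45.2 CPM in double-knockout replicates 1 to 5. The groups did not overlap, and double-knockout replicates 1 and 2, with the low mitochondrial share, were the lowest. The mean fell from 53.1 ± 4.50 (SD, n = 4) to 40.3 ± 5.12 CPM (SD, n = 5) (log2 fold change -0.40, standard error 0.11, adjusted p = 0.0355). This call was lost in 6 of 9 fits without 1 library, those without Smad4-knockout replicates 1, 3 and 4 (adjusted p = 0.106, 0.0923 and 0.0856) and without double-knockout replicates 2, 3 and 4 (0.0619, 0.0561 and 0.0553). It was also lost with the Y-linked term (log2 fold change -0.32, adjusted p = 0.177), in the libraries without Y-linked counts (-0.32, 0.0513) and with double-knockout replicates 1 and 2 both set aside (-0.29, 0.0534). Cybrd1, the ferric reductase of the apical membrane, had 1 to 29 counts per library and was not tested.

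Iron export and iron uptake from the blood showed no called change. Ferroportin (Slc40a1) was at 256, 323, 256 and 315 CPM in Smad4-knockout replicates 1 to 4 and at 187, 317, 315, 318 and 297 CPM in double-knockout replicates 1 to 5. Apart from the low double-knockout replicate 1 these values overlapped, and the log2 fold change was -0.00 ± 0.15 (standard error), with an adjusted p of 0.991 and either sign among the alternatives. Hephaestin (Heph) was at means of 245 ± 14.99 and 281 ± 35.6 CPM (SD, n = 4 and 5), with a log2 fold change of 0.20 (adjusted p = 0.219), and it was higher with limma-voom (0.27, adjusted p = 0.0381), in the libraries without Y-linked counts (0.36, adjusted p = 0.0185), and with double-knockout replicates 1 and 2 both set aside (0.30, adjusted p = 0.0334). The transferrin receptor (Tfrc) was at 307 ± 15.4 and 343 ± 50.6 CPM (SD, n = 4 and 5), a log2 fold change of 0.16 (adjusted p = 0.342).

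Ferritin, which stores iron, was the most abundant product among the members. Its heavy chain gene Fth1 was at 808, 946, 837 and 759 CPM in Smad4-knockout replicates 1 to 4 and at 607, 819.5, 843, 876 and 822 CPM in double-knockout replicates 1 to 5. The light chain gene Ftl1 was at 679.8, 751, 806 and 679 CPM in the former and at 577, 653, 993, 792 and 815 CPM in the latter. Both overlapped between the groups, with fold changes on the log2 scale of -0.08 (adjusted p = 0.688) and 0.07 (adjusted p = 0.776). Ferritin has many processed pseudogenes, and the row Ftl1-ps1 had 51 to 99 counts, so reads of near-identical copies could be split among them.

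Of the iron regulatory proteins, the gene of IRP2, Ireb2, rose, and that of IRP1, Aco1, did not pass the test. Ireb2 was at 130.5, 132, 116 and 144 CPM in Smad4-knockout replicates 1 to 4 and at 159, 178, 180.1, 193 and 179.8 CPM in double-knockout replicates 1 to 5. All double-knockout libraries were higher. The mean rose from 130.8 ± 11.5 (SD, n = 4) to 178 ± 12.2 CPM (SD, n = 5) (log2 fold change 0.45, standard error 0.084, adjusted p = 0.00756), and over the 20 alternatives it lay between 0.40 and 0.52. Aco1, whose protein also works as a cytosolic aconitase, was at 133 ± 8.82 and 134 ± 6.32 CPM (SD, n = 4 and 5), a log2 fold change of 0.01 (adjusted p = 0.956). IRP2 is controlled mainly by protein decay when iron is present, and no protein was measured here.

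The hairpins that these proteins bind are printed from the GENCODE M21 transcripts (GRCm38), as the first match in each of 4 members, with the loop in capitals and 5' to 3' on the strand of the mRNA. The pattern searched was an unpaired C, a stem of 5 bases, the loop CAGUGN and the other strand of the stem.
Fth1, 5' UTR, chr19:9982733-9982759, plus strand: uccugcuucaaCAGUGCuugaacggaa
Ftl1, 5' UTR, chr7:45459780-45459806, minus strand: ucuugcuucaaCAGUGUuugaacggaa
Slc40a1, 5' UTR, chr1:45925466-45925492, minus strand: aacuucagcuaCAGUGUuagcuaaguu
Tfrc, 3' UTR, chr16:32631220-32631246, plus strand: auuaucggaagCAGUGCcuuccauaau
Such a match was found in 294 of 21877 protein-coding genes (1.34%) and in 4 members, in the 5' UTR of Fth1, Ftl1 and Slc40a1, where binding blocks translation, and at 4 places in the 3' UTR of Tfrc, where binding protects the mRNA. All 4 of these mRNAs missed the threshold. The pattern allowed no bulge within the stem and no other loop. Members without a match, Slc11a2 among them, may thus still hold such a hairpin, and their changes cannot be set against those of the 4.

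Compared per exon length, ferritin and Mt1 stood at the head of the members in the Smad4-knockout group. The length joins the exons of all GENCODE M21 transcripts of a gene. It can exceed that of the mRNA present, and the order depends on it. It was 3469 bases for Fth1 and 1340 for Ftl1, while in CPM Fth1 was above Ftl1 (means of 837 and 729). In Smad4-knockout libraries the mean level was 544 CPM per kb of exon for Ftl1, 241 for Fth1, 90.4 for Mt1 and 69.7 for Slc39a4, followed by Slc39a1 (53.9), Tfrc (49.6), Slc39a11 (41.8) and Mt2 (41.3). In double-knockout libraries Mt2 reached a mean of 122 CPM per kb, between Mt1 (104) and Fth1 (229). Its range over libraries was 48.7 to 218, which took in that of Mt1. The exon length used for Mt1, 1246 bases, covers its whole gene, and that of Mt2 is 588 bases. In CPM, without division by length, Mt1 was above Mt2 in these libraries, at means of 130 and 71.9. Slc30a10 went from 1.16 to 6.48 CPM per kb, which placed it from among the lowest tested members to near Slc11a2 (6.34). On this scale Slc39a4 was the highest ZIP gene and Slc30a4 the highest ZnT gene (27.6 CPM per kb in Smad4-knockout libraries).

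**Figure D3:**
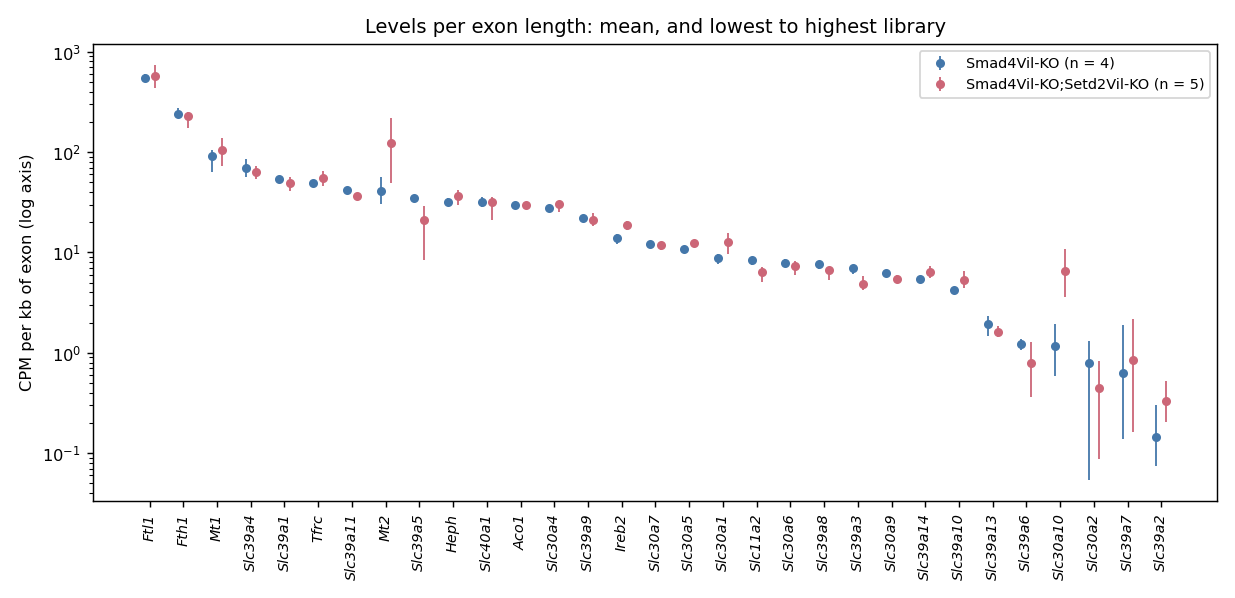
CPM per kb of exon on a log axis for the 31 tested members, ordered by the Smad4-knockout mean. Points are means of 4 Smad4-knockout and 5 double-knockout libraries and bars run from the lowest to the highest library. Ferritin leads in both groups, and Slc30a10 and Mt2 show the largest upward gaps between neighbouring points.

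Related metal genes were examined in 8 lists compiled by function, with 88 tested genes of which 5 rose (5.68%, against 6.76% of all genes tested) and 7 fell (7.95%, against 6.54%), shares close to those of all genes. Of the 4 tested genes for zinc sensing and other zinc carriers, Trpm7, a channel that passes zinc and magnesium, rose (121 ± 8.51 to 159.5 ± 14.0 CPM, SD, n = 4 and 5, log2 fold change 0.40, adjusted p = 0.0142) and the metallothionein Mt3 fell (-0.93, adjusted p = 0.0464). The call of Mt3 was lost with the Y-linked term (-0.97, adjusted p = 0.143). Mtf1 itself had a log2 fold change of 0.19 (adjusted p = 0.364). Of the 3 tested systemic iron regulators, Trf, the gene of the iron carrier transferrin, fell. Trf was at 80.4, 134, 135 and 205 CPM in Smad4-knockout replicates 1 to 4 and at 25.1, 16.6, 44.6, 42.2 and 30.3 CPM in double-knockout replicates 1 to 5. No libraries of the groups overlapped, and double-knockout replicates 2 and 1 were the lowest. The log2 fold change was -2.12 ± 0.31 (standard error), with an adjusted p of 0.00215. With both of these set aside it was -1.82 (adjusted p = 0.00372). The hepcidin genes Hamp and Hamp2 were too low to be tested.

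Of 15 tested haem genes 2 rose, 2 fell and 11 did not pass the test. The higher count was 0 without Smad4-knockout replicate 1 or 2 or double-knockout replicate 4 and 1 without Smad4-knockout replicate 3 or 4. The lower count was 0 without Smad4-knockout replicate 1 or 3 or double-knockout replicate 2 and with the Y-linked term, and 1 without Smad4-knockout replicate 2 or 4 and with double-knockout replicates 1 and 2 both set aside. Alas1, the first enzyme of haem synthesis, and Alad, the enzyme after it, rose by 0.36 and 0.83 on the log2 scale (adjusted p = 0.0269 and 0.0223). Ppox, a late enzyme of the same path, and Slc46a1, which carries haem and folate into the cell, fell by 0.39 on the log2 scale (adjusted p = 0.0296) and from a mean of 19.2 to 9.65 CPM (adjusted p = 0.0280). Both calls were lost with the Y-linked term, Ppox at -0.29 (adjusted p = 0.179) and Slc46a1 at -0.65 (adjusted p = 0.192). Slc46a1 was lowest in double-knockout replicates 1 and 2, at 5.50 and 6.54 CPM against 11.6 to 12.7 CPM in the other 3, and with both set aside its log2 fold change was -0.67 (adjusted p = 0.0283). Of 19 tested genes of mitochondrial iron and iron-sulphur clusters, Iscu, the scaffold on which the clusters are built, fell (-0.41, adjusted p = 0.0209), and it was the single call in that list, lost with the Y-linked term (-0.39, adjusted p = 0.0891). None of 10 intracellular iron genes passed edgeR's test, where 3 had an unadjusted p under 0.05, DESeq2 called 1 and limma-voom 3. None of 10 copper genes passed either, with 1 at an unadjusted p under 0.05 and 0 calls by DESeq2 and limma-voom.

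The lists of the oxygen and redox programmes, which share genes with iron biology, each held a pair of calls. Epas1, the hypoxia-inducible factor that drives Slc11a2 and Cybrd1 in the duodenum, was at 104, 101, 89.6 and 98.4 CPM in Smad4-knockout replicates 1 to 4 and at 40.8, 71.5, 63.7, 53.7 and 85.4 CPM in double-knockout replicates 1 to 5. All double-knockout libraries were lower (log2 fold change -0.64, adjusted p = 0.0351), but the call was lost with the Y-linked term (-0.74, adjusted p = 0.0780). P4ha1, a prolyl hydroxylase gene induced by hypoxia, fell as well (-0.80, adjusted p = 0.00692), as 2 of 18 tested genes of the hypoxia list, none of which rose. The count of lower genes was 1 without Smad4-knockout replicate 1, 2, 3 or 4 or without double-knockout replicate 3 or 4, and 4 with double-knockout replicates 1 and 2 both set aside. Of 9 tested NRF2-induced genes 2 rose, the quinone reductase Nqo1 (62.7 ± 13.6 to 147 ± 23.4 CPM, SD, n = 4 and 5, log2 fold change 1.23, adjusted p = 0.00121) and the sulphiredoxin Srxn1 (0.44, adjusted p = 0.0113). This count was 3 with the Y-linked term, 4 without double-knockout replicate 5, 5 without replicates 1 and 2 of that group and 6 in the libraries without Y-linked counts. The calls of Trf, P4ha1, Nqo1 and Srxn1 held in all 20 alternatives. The other calls of these lists were lost in at least 1 of the fits without a library: that of Trpm7 without Smad4-knockout replicate 3 (adjusted p = 0.0532), those of Iscu without Smad4-knockout replicate 1 or 3 (0.0733 and 0.0795), and those of Mt3, Slc46a1, Alas1, Alad, Ppox and Epas1 in 4 to 8 of the 9. The highest adjusted p in those fits was 0.138 for Mt3, 0.0874 for Slc46a1, 0.0770 for Alas1, 0.0697 for Alad and 0.0894 for Epas1, each without Smad4-knockout replicate 1, and 0.106 for Ppox without Smad4-knockout replicate 3. Without Smad4-knockout replicate 1 the adjusted p of Ppox was 0.0675. Without Smad4-knockout replicate 1 or 3, 2 genes of the 8 lists were lower.

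**Figure D4:**
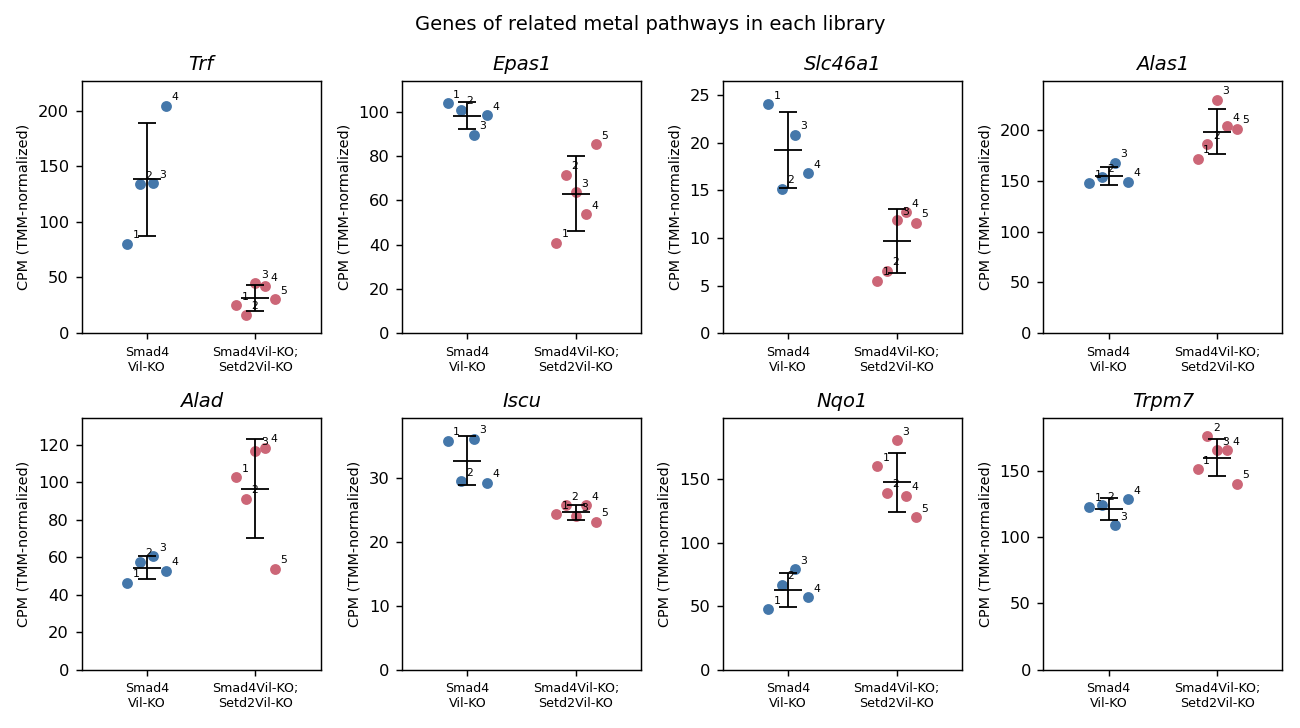
CPM of 8 related metal genes in each library, with the replicate number beside each point and bars for the mean and SD of the 4 Smad4-knockout and 5 double-knockout libraries. Trf, Epas1, Slc46a1 and Iscu lie lower in every double-knockout library, Alas1, Nqo1 and Trpm7 lie higher, and Alad overlaps through replicate 5.

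Among the marker lists of other epithelial cell types, those of small-intestinal enterocytes and enteroendocrine cells held several calls. Of 10 tested small-intestinal enterocyte markers 5 rose and none fell, and their summed level over the list of 12 was 931 to 1013 CPM in Smad4-knockout libraries and 1343, 1749, 1354, 1743 and 1053 CPM in double-knockout replicates 1 to 5. The count of 5 was 2 without Smad4-knockout replicate 2, 3 or 4 and with the Y-linked term, 3 without Smad4-knockout replicate 1 or double-knockout replicate 1, 2 or 4, and 7 without double-knockout replicate 5. Apoa1 and Apoa4 had 0 counts in every Smad4-knockout library. Sis, the sucrase of the small-intestinal brush border, was at a mean of 2.77 and 155 CPM. Mt2 had the same order as this sum over the 5 double-knockout libraries, with replicate 2 highest and replicate 5 lowest. Enteroendocrine markers rose in 5 of 8 tested (summed 72.4 to 99.7 against 166 to 252 CPM), or in 3 without Smad4-knockout replicate 3, and of 7 goblet markers Muc2 fell (-1.62), with sums of 11325 to 30226 against 4158 to 13071 CPM. None of 7 colonocyte markers was called by edgeR, with 0 at an unadjusted p under 0.05, none by DESeq2, 1 lower by limma-voom and 2 lower in the libraries without Y-linked counts. Of 5 tested Paneth markers Defa24 rose, a count of 0 without Smad4-knockout replicate 1, 2 or 3 or double-knockout replicate 4, with list sums of 332 to 1484 against 97.5 to 1555 CPM, and edgeR called no epithelial, tuft, proliferation, neutrophil, macrophage, lymphocyte, stromal or erythroid marker, with 0 to 2 at an unadjusted p under 0.05 in each list. DESeq2 called 1 epithelial and 1 stromal marker, and limma-voom 1 epithelial, 1 proliferation and 1 neutrophil marker. In the libraries without Y-linked counts edgeR called 5 of 6 erythroid markers higher, 2 of 5 tuft markers lower, 2 of 8 proliferation markers higher, 1 of 5 neutrophil markers lower, and 1 of 6 stromal markers higher and 1 lower, and without double-knockout replicate 5 it called 3 tuft markers lower. Erythroid markers, which bear on haem and iron, had an unadjusted p under 0.05 in 4 of 5 with the Y-linked term, and their sums were 7.65 to 27.1 CPM in Smad4-knockout libraries and 10.3, 29.0, 57.7, 39.6 and 3.79 CPM in double-knockout replicates 1 to 5. The erythroid form of the first haem enzyme, Alas2, was at no more than 1.85 CPM in any library. The part of these cells in the values of the zinc and iron genes was not tested.

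**Figure D5:**
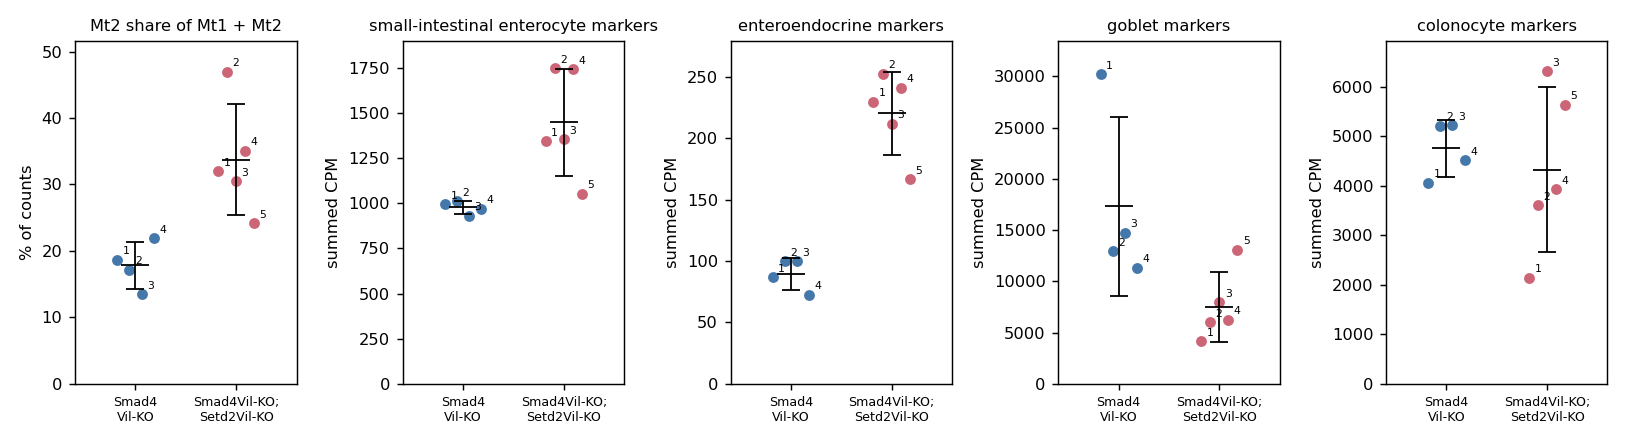
Share of Mt2 in the counts of Mt1 and Mt2 (%), and summed CPM of small-intestinal enterocyte, enteroendocrine, goblet and colonocyte markers, in each library with its replicate number, and bars for the mean and SD of the 4 Smad4-knockout and 5 double-knockout libraries. The share and the enterocyte and enteroendocrine sums are higher in every double-knockout library, the goblet sums overlap through double-knockout replicate 5, and the colonocyte sums overlap.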

How the data were processed

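RNA-seq was read from IECs of 4 Smad4-knockout and 5 double-knockout libraries, grouped by genotype and replicate from the sample labels. The authors deposited whole-number counts per gene symbol without normalization. The submitters' processing notes name HISAT2 2.0 and mm10. The counting program, annotation and use of strand are not given in the sources used here, so overlapping genes, antisense genes and near-identical copies are uncertain. Of the symbols, 27 had been turned into dates and stayed in the tests without a name. No pair of libraries in a group agreed within sampling noise (chi-square of at least 10.2 per gene), and double-knockout replicates 1 and 2 stood apart.

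Counts were analysed in R 4.3.3. Low genes were removed by filterByExpr (edgeR 4.0.16, grouped by genotype). TMM normalization was followed by the quasi-likelihood test of edgeR, without covariates, and Benjamini-Hochberg adjustment at 0.05. Each standard error was derived from the fold change and the F statistic. The biological coefficient of variation was 21.2%. Alternatives were DESeq2 1.42.0, voom of limma 3.58.1, robust dispersion, other scalings and filters, a replicate block, a term for libraries with over 100 Y-linked counts, the libraries without them, other thresholds and each library left out. Leaving out each library for the Mt2 share, and setting aside double-knockout replicates 1 and 2 together, were chosen after the data were seen. Replicate numbers did not pair the libraries.

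The members, lists and tests were chosen with earlier results of these data known. Named genes were all members, Setd2, Smad4, called genes of the pathway lists and markers beside a result, and any other gene was named after its values were seen. Gene models are those of GENCODE M21 and promoters those of RefSeq GRCm38.p6, both of the build that the notes name.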

Additional observations from a re-analysis of the deposited data

Results flagged for a closer look

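In 4 cases a single library stood far from the others of its group, measured by its gap to the nearest library over the range of the group. Such a gap arises by chance in about 1 of 20 groups, and 62 groups were looked at. Double-knockout replicate 1 was low for Fth1 (607 CPM, with the nearest library at 819.5), for Slc40a1 (187 CPM, nearest 297) and for Slc39a11 (112 CPM, nearest 123). The log2 fold changes without that library were 0.0068 for Fth1, 0.12 for Slc40a1 and -0.17 for Slc39a11, and no adjusted p of these was under 0.05. That library also had the lowest Slc11a2 and Slc39a5 of the 9. Smad4-knockout replicate 3 was high for Slc39a7 (4.91 CPM, nearest 0.634), and without it the log2 fold change of Slc39a7 was 2.04 (adjusted p = 0.193).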

How the results depend on the processing

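The calls of Slc30a10, Ireb2 and Setd2 held in all 20 alternatives. The number of higher members, 4, was 7 with limma-voom, 2 with the term for Y-linked counts, 2 at an adjusted p under 0.01 and 7 at one under 0.1, and 2 to 5 with a library left out. Over all genes the higher calls, 986, were 1401 with limma-voom, 653 with that term and 455 to 1380 with a library left out. The number of lower members, 2, was 1 with the replicate block, 0 with the term for Y-linked counts, 0 at an adjusted p under 0.01 and 4 at one under 0.1, and 0 to 2 with a library left out. Over all genes the lower calls, 955, were 831 with the block, 632 with that term and 392 to 1316 with a library left out. Of the related genes, 5 higher became 9 with limma-voom and 15 in the libraries without Y-linked counts and 10 with double-knockout replicates 1 and 2 both set aside (3 to 8 with a library left out), and 7 lower became 4 with the replicate block and 3 with a Y-linked term (2 to 6). Over all genes the higher calls, 986 of 14593 in the main fit, became 1401 of 14593, 1406 of 15138 and 1054 of 14621 in the first of these fits, in that order. The cause was not tested. Same-numbered libraries of the 2 groups had correlations of -0.096, -0.10, 0.020 and 0.088 in their deviations, so the numbers did not pair them, and under the replicate block the adjusted p was 0.0606 for Slc11a2 (log2 fold change -0.45), 0.0522 for Alas1, 0.0925 for Iscu, 0.0884 for Ppox and 0.130 for Mt3, while 7 small-intestinal enterocyte markers were called and 5 of 5 erythroid markers had an unadjusted p under 0.05. Signs turned for members near 0. With the term for Y-linked counts and in the libraries without them, respectively, the log2 fold change was 0.037 and 0.042 for Fth1, 0.060 and 0.064 for Slc30a6, and 0.14 and 0.15 for Slc40a1. Slc40a1 was also at 0.0051 with DESeq2, 0.0051 with its size factors, 0.069 with limma-voom, 0.02 with library size alone and 0.0067 with the stricter filter described next, and Aco1 was at -0.010 with no filter. With double-knockout replicates 1 and 2 both set aside, Fth1 was at 0.022, Slc30a6 at 0.031, Slc30a7 at 0.016, Slc39a9 at 0.019 and Slc40a1 at 0.12. With a library left out the range was -0.028 to 0.048 for Aco1, -0.13 to 0.0068 for Fth1, -0.031 to 0.16 for Ftl1, -0.32 to 2.04 for Slc39a7 and -0.051 to 0.12 for Slc40a1. Under the filter of 10 or more counts per library Slc30a2, Slc39a2 and Slc39a7 gave no value. Few counts limit what can be said of Cybrd1, Slc30a3, Slc30a8, Slc39a12, Slc39a2 and Slc39a7, and for Slc39a7 the part of shared reads was not tested.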
